A study of Mus musculus with 27 samples.

Results

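The 7 mouse 2'-5'-oligoadenylate synthetase (OAS) genes described here are Oas1a, Oas1e, Oas1g, Oas2, Oas3, Oasl1 and Oasl2. They were chosen by gene symbol, 7 of the 55401 genes of the deposited table, and the list was proposed after a first analysis of these libraries. All 7 were among the 11118 genes kept by the filter on low values, which asked for 3 or more libraries with an FPKM of 1 or more. Their changes below are therefore descriptions of a list chosen with results known and give no independent support to a direction. RNA came from the intestine of wild-type male C57BL/6 mice aged 6 to 8 weeks, in 27 libraries, 3 in each of 9 groups. The irradiated groups had received 60Co gamma rays: 6 Gy with sampling after 6 h or 24 h, or 15 Gy with sampling after 6 h, after 24 h or after 3 d. The agent CBLB502, a protein derived from bacterial flagellin that activates Toll-like receptor 5, was injected i.p. at 0.2 mg per kg, with 6 Gy, with 15 Gy or alone, each sampled at 24 h. The design text gives the injection as 0.5 h before 15 Gy, and the control mice are labelled as untreated. That text counts 7 groups of 10 mice and a PBS control, and neither it nor the labels say which stretch of intestine was taken or whether each library is a separate mouse. The p-values thus measure the spread between these libraries.

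OAS proteins bind double-stranded RNA, a hallmark of viral replication, and the catalytically active ones link ATP into 2'-5'-oligoadenylates (2-5A). These serve as second messengers of the antiviral response. The genes are induced by type I and type III interferons through transcription factors that include STAT2 and IRF9, and the gut epithelium responds mainly to type III interferon. Oas1a and Oas1g are the active synthetases among the many mouse Oas1 copies. Oas2 and Oas3 are larger proteins built of several OAS units. Oasl1 is an OAS-like protein without synthetase activity that in mice limits translation of Irf7, and Oasl2 is an OAS-like protein that keeps synthetase activity.

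All 7 genes lie on chromosome 5 (GRCm38), in 2 places. Oasl2 (chr5:114896936-114912234) and Oasl1 (chr5:114923240-114937915) are on the plus strand, next to each other. Oas2 (chr5:120730333-120749853), Oas3 (chr5:120753098-120777661), Oas1e (chr5:120786226-120795530), Oas1g (chr5:120876142-120887613) and Oas1a (chr5:120896256-120907521) are on the minus strand. The positions are those of the table, and GENCODE vM21 gives the same start and end for each of the 7. A gene on the other strand overlaps 3 of them in that annotation: Gm13822 at Oasl1, Gm43068 at Oas2 and Gm43069 at Oas1e. Without a stated strand setting their reads cannot be told apart from those of the OAS gene.

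The start regions of the 2 Oas1 synthetases and of Oas3 are shown because they hold a sequence through which interferon is known to act on many genes. The RefSeq promoter table (GRCm38.p6) matched 5 of the 7 members, and each window of 300 bases runs from 250 before to 50 after the start site. The 250 bases before the start are printed 5′ to 3′ on the gene's own strand. They cover chr5:120907526-120907775 for Oas1a, chr5:120887614-120887863 for Oas1g and chr5:120777660-120777909 for Oas3. Capitals mark GAAANNGAAA, the core of the interferon-stimulated response element, searched on both strands as GAAANNGAAA or TTTCNNTTTC:
Oas1a: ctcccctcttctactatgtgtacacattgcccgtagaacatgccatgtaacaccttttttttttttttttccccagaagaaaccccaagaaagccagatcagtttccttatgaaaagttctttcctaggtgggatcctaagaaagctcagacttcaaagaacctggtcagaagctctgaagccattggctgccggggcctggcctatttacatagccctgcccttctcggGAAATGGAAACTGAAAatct
Oas1g: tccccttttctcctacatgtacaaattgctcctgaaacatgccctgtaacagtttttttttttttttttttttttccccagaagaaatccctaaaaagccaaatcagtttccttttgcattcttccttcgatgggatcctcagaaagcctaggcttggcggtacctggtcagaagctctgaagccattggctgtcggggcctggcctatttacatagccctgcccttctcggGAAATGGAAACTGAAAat
Oas3: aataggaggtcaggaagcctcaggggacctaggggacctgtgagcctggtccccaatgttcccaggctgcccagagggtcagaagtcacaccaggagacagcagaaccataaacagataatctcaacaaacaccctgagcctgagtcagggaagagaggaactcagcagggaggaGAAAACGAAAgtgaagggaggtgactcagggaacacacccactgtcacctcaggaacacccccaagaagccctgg
In Oas1a the core began 20 and 14 bases before the start site, and in Oas1g 18 and 12 bases before it, so that in each gene the 2 matches overlap and form 1 run of capitals. In Oas3 it began 75 bases before the start. The windows of Oasl1 and Oasl2 held no match to these letters. Of all 32851 promoter windows in the table, 1131 (3.44%) held the core. The windows of Oas1g and Oas1a were identical at 261 of 306 aligned positions (85.3%), and the other pairs among the 5 windows at 41.9 to 46.6%.

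The likeness of Oas1a and Oas1g extends into the transcripts, which bears on how far their counts are separate measurements. Of the 50-base stretches in the longest Oas1a transcript, 57.6% occurred unchanged in Oas1g transcripts, and 54.1% of those of Oas1g occurred in Oas1a. For Oas1e the share found in any other Oas row was 11.3%, most of it in Oas1c (8.5%). For Oas2, Oas3, Oasl1 and Oasl2 it was 0%. How reads that match more than 1 copy were assigned is not given in the sources used here, so the split between Oas1a and Oas1g is uncertain. Their FPKM ratio (Oas1a to Oas1g) stayed between 1.36 and 2.24 over the 27 libraries. It was 1.99 to 2.24 in the libraries of 6 Gy at 6 h, above the 1.36 to 1.95 of all other libraries.

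Compared per length, in FPKM (fragments per kilobase, scaled to the library's mapped fragments), the members were the 7 highest of the 12 rows whose symbol starts with Oas. Averaged over the 27 libraries, Oas1a stood at 57.2 FPKM, Oasl2 at 42.1, Oasl1 at 38.2 and Oas1g at 32.7. Oas3 followed with 17.6 FPKM, Oas2 with 7.54 and Oas1e with 5.15. Just outside the list stood Oas1b with 4.37 FPKM, a gene annotated as a polymorphic pseudogene, and Oas1c with 1.43 FPKM. Oas1h (0.148), Oas1f (0.0448) and Oas1d (0.0027 FPKM) were close to 0. In control libraries the FPKM levels were 66.4 ± 12.6 for Oas1a, 49.7 ± 12.3 for Oasl2, 39.0 ± 8.3 for Oas1g and 31.2 ± 5.37 for Oasl1 (SD, n = 3). Neighbours among these 4 overlapped. Oas3 with 20.3 ± 2.23 FPKM lay below all of them without overlap, and Oas1e with 9.2 ± 1.37 FPKM overlapped Oas2 with 5.82 ± 3.17 FPKM.

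**Figure D1:**
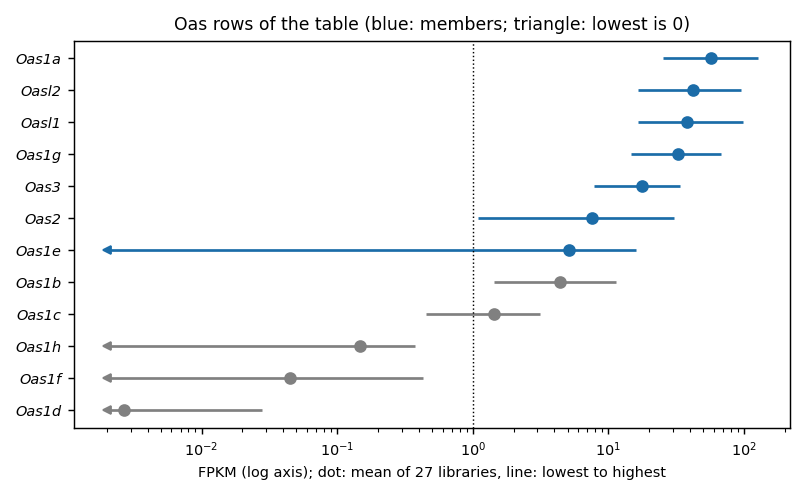
Level of the 12 Oas rows in FPKM (log axis): dots are means over 27 libraries and lines run from the lowest to the highest library, with a triangle where the lowest is 0. The members, in blue, average 5.15 FPKM or more, and Oas1e is the member whose lowest library is 0; the dotted line marks 1 FPKM.

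Some features of the libraries bear on every comparison. Total counts ran from 57.4 to 87.1 M per library. Both 24 h groups of 6 Gy, 6 libraries, differed from the rest in tissue markers. Their 9 exocrine pancreas markers summed to 195 to 1860 CPM with CBLB502 and 60.7 to 5988 CPM without it, against 4.1 to 6.19 CPM in control, where 6 of the 9 had no count. Their 5 fibroblast markers summed to 30.4 to 43.2 CPM with CBLB502 and 32.2 to 43.8 CPM without it, against 0.562 to 3.07 CPM in control. The 10 enterocyte markers were all present in every group, as the tissue label asks. Their sum was 54597 to 64379 CPM at 6 Gy 6 h, 58197 to 69220 CPM at 6 Gy 24 h and 51309 to 72567 CPM with CBLB502 added, against 112280 to 138091 CPM in control. In whole tissue, fewer cells of a type and less RNA per cell cannot be told apart. The part of these differences in the results below was not tested.

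Across the 9 groups, the members went through a narrow range apart from Oas1e and Oas2. The values that follow are library-size-adjusted counts (CPM) scaled by the trimmed mean of M values (TMM-scaled CPM), compared only within a gene. The ratio of the highest to the lowest group mean was 2.47 for Oas3, 2.68 for Oasl2, 2.97 for Oasl1, 3.19 for Oas1g and 4.26 for Oas1a. For Oas2 it was 11. The lowest group was 15 Gy at 24 h for Oas2, Oas3 and Oasl2, and 6 Gy with CBLB502 for Oas1a, Oas1g and Oasl1. The highest group was a 6 h group for every member except Oas2, whose highest mean was at 15 Gy 3 d. Most neighbours in these orders overlapped. For Oas1g every library of the 4 highest groups (6 Gy 6 h, 15 Gy 6 h, 15 Gy 3 d and control) lay above every library of the other 5. For Oas1a the same 4 groups had the highest means, and 1 library of 6 Gy 24 h (117.4 CPM) lay above the lowest of 15 Gy 3 d (112.8 CPM).

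**Figure D2:**
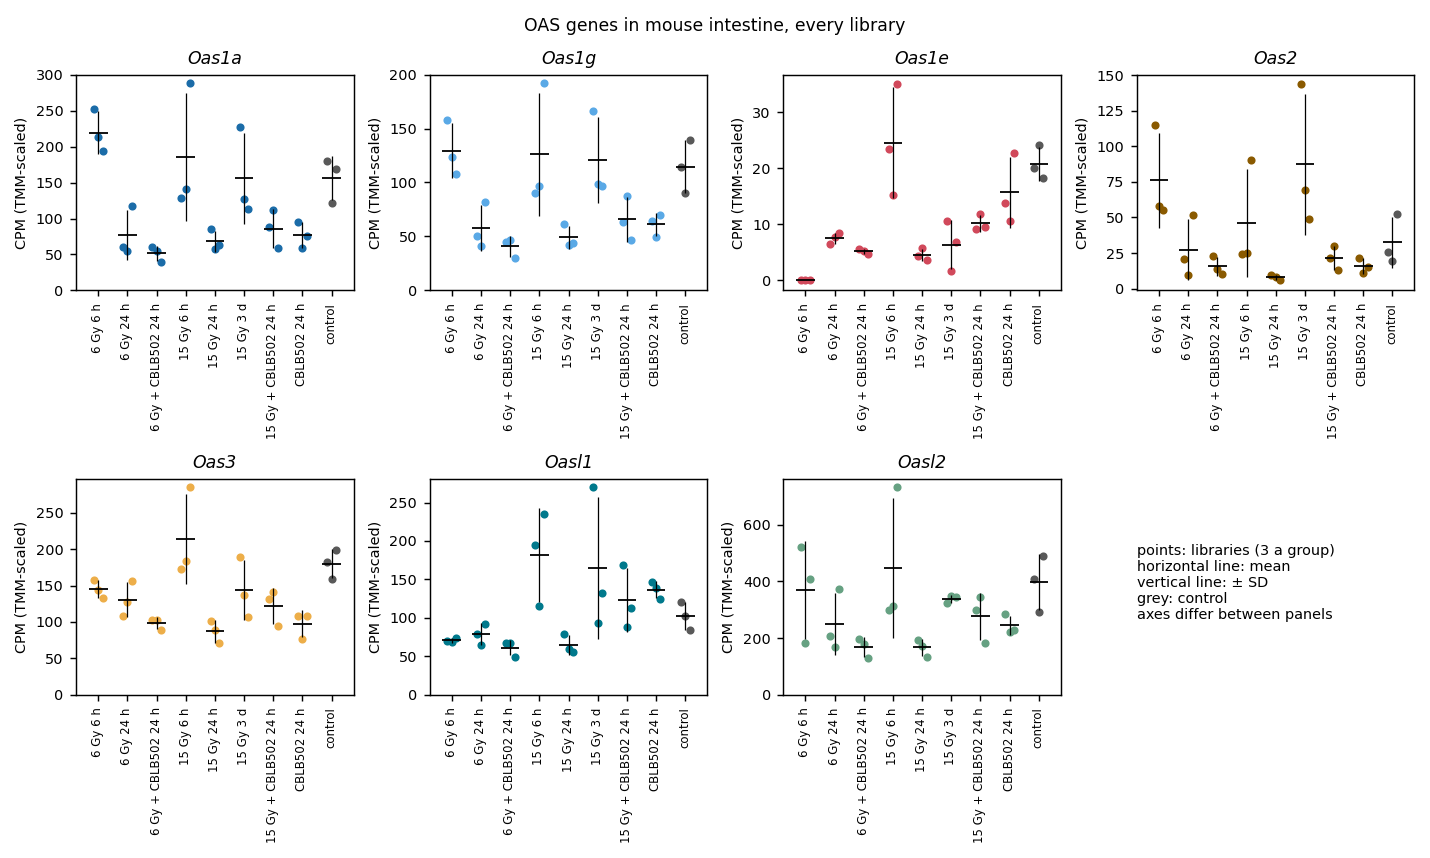
TMM-scaled CPM of each member in every library, with the 9 groups from left to right, control last. Points are libraries, horizontal lines are means of 3 and vertical lines are ± SD. The 3 libraries of 15 Gy at 24 h lie below the 3 control libraries for every member, and Oas1e is at or near 0 at 6 Gy 6 h. How many of all genes lie below control in the same way at 15 Gy 24 h was not counted.

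After 15 Gy, Oasl1 was the only member called against control at 6 h, where it was higher, and Oas1e the only one at 3 d, where it was lower. At 24 h all 7 had lower means than control, and in all 7 the 3 libraries lay below the 3 control libraries. How many of the 11118 genes did the same was not counted. In edgeR's quasi-likelihood test (Benjamini-Hochberg adjusted over 11118 genes) 4 of the 7 fell: Oas1e, Oas1g, Oas1a and Oas3. From 24 h to 3 d, 5 of the 7 rose, with Oas2 changing most.

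Oas2 had the largest change from 24 h to 3 d, with a wide spread between libraries. Its libraries held 25.6, 19.3 and 52.7 CPM in control, 24.0, 24.7 and 90 CPM at 6 h, 9.64, 7.97 and 6.18 CPM at 24 h, and 143.5, 69.3 and 49.2 CPM at 3 d. The 24 h libraries were the lowest of all 27 for this gene, those of 6 h and 3 d overlapped with control, and single libraries stood high in control, at 6 h and at 3 d. At 24 h Oas2 averaged 7.93 ± 1.73 CPM, against 32.5 ± 17.7 CPM in control (log2 fold change -2.04 ± 0.61 SE, adjusted p = 0.0564, not called). At 3 d it averaged 87.3 ± 49.7 CPM, against 7.93 ± 1.73 CPM at 24 h, a log2 fold change of 3.46 ± 0.65 (adjusted p = 0.00046).

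Oas1a and Oas1g moved together. Oas1a held 179.5, 122.0 and 169.4 CPM in control, 128.5, 140.9 and 288.2 CPM at 6 h, 85.2, 57.0 and 62.9 CPM at 24 h, and 228.2, 126.6 and 112.8 CPM at 3 d. Only the 24 h libraries were clear of control. Oas1a fell by 1.20 ± 0.35 at 24 h on the log2 scale (adjusted p = 0.0479), and Oas1g by 1.22 ± 0.32 (adjusted p = 0.0332), with 49.1 ± 10.8 CPM for Oas1g, against 114.5 ± 24.7 CPM in control. From 24 h to 3 d they rose by 1.19 ± 0.35 (adjusted p = 0.0147) and 1.3 ± 0.32 (adjusted p = 0.00495).

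Oas3 fell to 101.4, 88.4 and 70.6 CPM at 24 h, against 183.0, 158.4 and 199.0 CPM in control, without overlap (log2 fold change -1.05 ± 0.22, adjusted p = 0.00925). At 3 d it held 188.6, 137.0 and 106.2 CPM, all above the 24 h libraries (0.73 ± 0.22 against 24 h, adjusted p = 0.0188). Oasl2 had 194.5, 173.5 and 134.0 CPM at 24 h, against 409.4, 292.3 and 490.5 CPM in control, again without overlap, and just missed the threshold (-1.25 ± 0.38, adjusted p = 0.0564). At 3 d its 3 libraries held 323.5, 347.4 and 346.5 CPM, all above 24 h and inside the control range (1.02 ± 0.37 against 24 h, adjusted p = 0.05, not below the threshold).

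Oasl1, the repressor of Irf7 translation, was the single member called at 15 Gy 6 h. It held 194.7, 114.7 and 235.1 CPM at 6 h, against 120.0, 102.3 and 84.3 CPM in control, with 1 treated library inside the control range (log2 fold change 0.83 ± 0.31, adjusted p = 0.0474). At 24 h it held 78.8, 58.7 and 55.0 CPM, below all control libraries without passing the test (-0.67 ± 0.31, adjusted p = 0.208). At 3 d it held 269.8, 93.6 and 131.9 CPM and had risen by 1.36 ± 0.31 over 24 h (adjusted p = 0.00257).

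Oas1e kept a low level at 3 d. Its libraries held 20, 24.1 and 18.3 CPM in control, 23.5, 15.3 and 35.0 CPM at 6 h, 4.34, 5.75 and 3.67 CPM at 24 h, and 10.6, 1.76 and 6.77 CPM at 3 d. Those of 24 h and of 3 d all lay below control and overlapped each other. Against control it fell by 2.18 ± 0.46 at 24 h (adjusted p = 0.00993) and by 1.70 ± 0.46 at 3 d (adjusted p = 0.00777), and the difference between 3 d and 24 h was 0.48 ± 0.45 (adjusted p = 0.476).

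**Figure D3:**
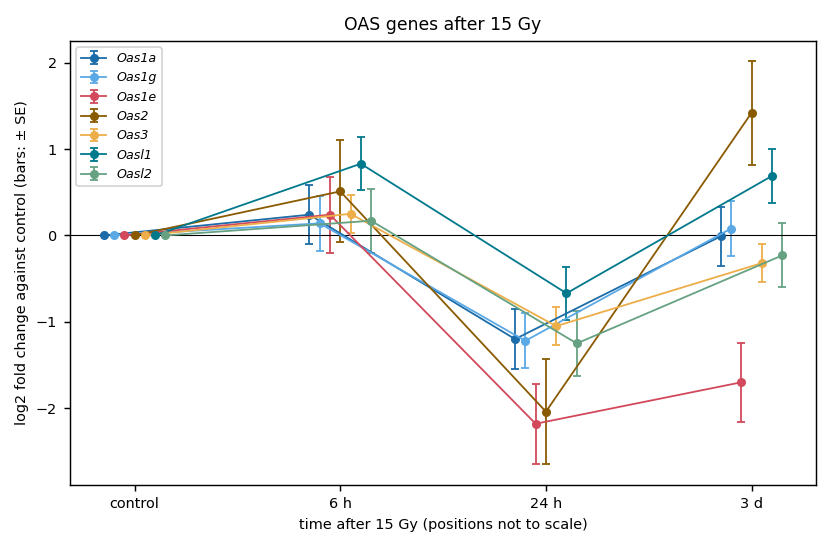
Fitted log2 fold change of each member against control at 6 h, 24 h and 3 d after 15 Gy, with bars of ± SE (3 libraries per group, the same control in all). All 7 lie below 0 at 24 h, between -0.67 for Oasl1 and -2.18 for Oas1e, and Oas1e alone stays below -1 at 3 d.

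Set against all genes, the counts read as follows. At 15 Gy 24 h 4 of 7 members fell, while 2.31% of the 11118 genes tested fell. At 15 Gy 6 h 1 of 7 rose, where 12.2% of all genes did, and at 3 d 1 of 7 fell, where 15.6% did. From 6 h to 24 h all 7 fell by 1.3 to 2.54 on the log2 scale (adjusted p from 0.00014 to 0.00623), where 13.5% of all genes fell. From 24 h to 3 d 5 of 7 rose, where 11.2% of all genes did. The median log2 fold change of the members was -1.22 at 24 h and -0.01 at 3 d against control, and that of all genes 0.03 and 0.02. These comparisons share libraries, so the fall at 24 h and the rise after it both rest on the same 3 libraries of 24 h. Oas1a and Oas1g count as 2 members in these shares, though how far their counts are separate is uncertain.

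Single libraries decide part of this. The Oas1a call at 15 Gy 24 h against control was lost without any 1 of the 6 libraries, and also without the filter, with the replicate block, on FPKM, with the compared groups alone and without the 24 h groups of 6 Gy. It was kept in 2 of 14 alternatives, that of Oas1g in 6, that of Oas3 in 13 and that of Oas1e in 14. The number of members that fell there was 2 without control replicate 1, without control replicate 3, without 24 h replicate 2 and without 24 h replicate 3. Oasl1 at 6 h was called in the full set and lost with any 1 of 5 of the 6 libraries left out. Without replicate 3 of 15 Gy 6 h, the highest library for all 7 members at that time, the log2 fold change at 6 h was 0.60 for Oasl1 and -0.41 to -0.01 for the other 6. Without that library 6 of the 7 still fell from 6 h to 24 h, Oasl2 being the exception. From 24 h to 3 d 3 members rose without 24 h replicate 3 and 3 without 3 d replicate 1.

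Leukocyte markers moved in part with this course. At 24 h the 7 T cell markers summed to 133 to 236 CPM, against 230 to 537 CPM in control, and 4 general leukocyte markers to 24.4 to 34.0 CPM, against 40.1 to 65.2 CPM in control. Of those tested, 1 of 6 and 1 of 4 fell. At 3 d the sums were 114.5 to 196 CPM and 24.0 to 28.8 CPM, no higher than at 24 h. From 24 h to 3 d 5 of the 7 OAS members rose, where 11.2% of all genes did, and Oasl2 and Oas1e were not called. The 7 myeloid markers summed to 13.9 to 20.5 CPM at 24 h, against 19.7 to 21.1 CPM in control. At 3 d they summed to 21.4 to 23.5 CPM, above 24 h, and 1 of the 5 tested rose from 24 h. The enterocyte markers summed to 111121 to 120856 CPM at 24 h, against 112280 to 138091 CPM in control, and 0 of 10 were called. At 3 d 5 of 10 fell against control, with a sum of 82020 to 116238 CPM, as did 5 of the 6 T cell markers tested. Of the Paneth cell markers 4 of 5 rose at 3 d against control, with a sum of 115 to 155 CPM in control, 95.7 to 334 CPM at 24 h and 486 to 1015 CPM at 3 d. The part of these cells in the OAS course was not tested.

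At 6 h after the lower dose, Oas1e was all but absent and the other members did not pass the test. Its counts were 0, 0 and 4 at 6 Gy 6 h, against 1296, 1800 and 1227 in control. The 2 libraries at 0 allow, by the limit of 3 counts, up to 0.0507 and 0.0376 CPM, and the library with 4 counts stood at 0.0541 CPM. Over the summed counts Oas1e was 1113-fold lower than in control, with an exact 95% counting interval of 434 to 4087, which covers counting error only. In edgeR's quasi-likelihood test it fell (adjusted p = 9.6e-09), and the fitted log2 value of -9.99 depends on the prior count and is no bound.

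The near absence of Oas1e was not seen at the higher dose. At 15 Gy 6 h Oas1e had 1801, 1135 and 2512 counts, against 0, 0 and 4 at 6 Gy 6 h, without overlap (adjusted p = 3.8e-09). At 6 Gy 24 h it was back at 476, 633 and 664 counts. Of the 4879 genes with at least 1000 counts in every control library, Oas1e was the only one with 5 or fewer counts in total at 6 Gy 6 h, and no gene met this in any other group. These limits were set after its counts had been seen.

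Neighbouring copies were lower in the same libraries but not absent. Oas1c, beside Oas1e, had 1.52, 1.48 and 2.48 CPM at 6 Gy 6 h, against 3.35, 3.59 and 7.36 CPM in control (log2 fold change -1.38 ± 0.33, adjusted p = 0.00305). Oas1b had 5.75, 4.54 and 4.53 CPM, against 11, 9.33 and 27.5 CPM in control (-1.69 ± 0.38, adjusted p = 0.00211). Both sets of libraries were clear of control. Oas1b was also lower at 15 Gy 6 h, with 6.82, 3.65 and 9.26 CPM (-1.28 ± 0.38 against control, adjusted p = 0.0147), and its difference between the doses was not called (0.41 ± 0.37, adjusted p = 0.401). Gm43069, which overlaps Oas1e on the other strand, had no count in these libraries or in control.

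**Figure D4:**
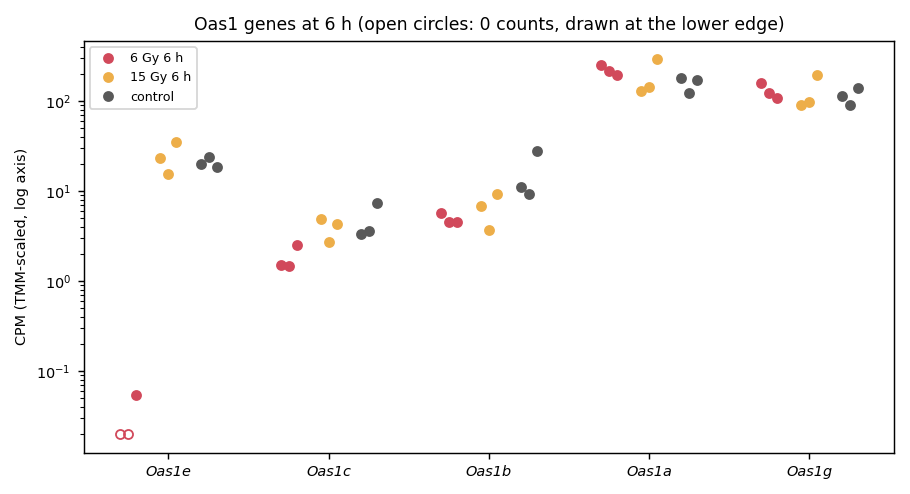
TMM-scaled CPM (log axis) of 5 Oas1 genes at 6 Gy 6 h, 15 Gy 6 h and in control, 1 point a library; open circles are libraries with 0 counts, drawn at the lower edge. Oas1e at 6 Gy 6 h is more than 100 times below every other Oas1e library shown, while Oas1a and Oas1g overlap between the 2 doses.

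Other features differed in those libraries too. As given above, the enterocyte marker sum at 6 Gy 6 h was less than in control, and 9 of the 10 markers fell. All 5 goblet cell markers fell too, with a sum of 1361 to 4282 CPM at 6 Gy 6 h, against 4153 to 7553 CPM in control. Of the enteroendocrine markers 3 of 5 rose (sum 402.5 to 420.3 CPM, against 150.5 to 270.5 CPM in control), and both tuft cell markers tested rose (sum of all 4 listed 52.9 to 88.4 CPM, against 27.6 to 40.0 CPM in control). The enterocyte sum was as low at 6 Gy 24 h, where Oas1e held 6.41, 7.68 and 8.44 CPM. Pdx1, a transcription factor of the proximal gut chosen after its values were seen, had 4.94, 38.2 and 41.8 CPM at 6 Gy 6 h, against 0.463, 0.455 and 1.42 CPM in control. It had 34.0, 54.4 and 8.44 CPM in the libraries of CBLB502 alone, where Oas1e held 13.8, 10.6 and 22.7 CPM. Control had the lowest Pdx1 mean of the 9 groups, 0.778 ± 0.553 CPM (SD). After 15 Gy the mean was 9.62 CPM at 6 h, 4.85 CPM at 24 h and 11.2 CPM at 3 d. Their SDs were 9.83, 7.77 and 11.7 CPM. With CBLB502 and 15 Gy it was 18.0 ± 15.0 CPM. With 6 Gy at 24 h it was 21.0 ± 8.2 CPM without CBLB502 and 19.1 ± 7.23 CPM with it. The part of cell make-up or of the stretch of gut in the Oas1e level, or in any other difference from control, was not tested.

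For the remaining members at 6 Gy 6 h, Oas1a held 252.2, 213.2 and 193.5 CPM, against 179.5, 122.0 and 169.4 CPM in control, all higher and short of the threshold (0.48 ± 0.34, adjusted p = 0.316). Oas2 held 114.7, 58.3 and 55.2 CPM, against 25.6, 19.3 and 52.7 CPM in control, also without overlap and short of it (1.23 ± 0.60, adjusted p = 0.135). Oasl1 held 69.8, 67.9 and 73.6 CPM, below all control libraries (-0.54 ± 0.31, adjusted p = 0.208). In all 1 of 7 members fell at 6 Gy 6 h, where 15.3% of all genes fell.

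Set directly against each other at 6 h, 15 Gy exceeded 6 Gy in 3 of the 7 members: Oas1e, Oasl1 and Oas3. In the same contrast 20.2% of all genes were higher at 15 Gy. Oasl1 averaged 181.5 ± 61.2 CPM at 15 Gy and 70.4 ± 2.9 CPM at 6 Gy (log2 fold change 1.37 ± 0.31, adjusted p = 0.00124). Oas3 averaged 214.2 ± 62.4 CPM at 15 Gy and 144.9 ± 12.3 CPM at 6 Gy (0.56 ± 0.22, adjusted p = 0.0439), a call kept in 6 of 14 alternatives. It was lost without any 1 of the 3 libraries of 6 Gy, without replicate 3 of 15 Gy, on FPKM, with the compared groups alone and without the 24 h groups of 6 Gy. For Oas1a, Oas1g, Oas2 and Oasl2 the difference lay between -0.72 and 0.27 and did not pass the test. The widest interval was that of Oas2, from -1.87 to 0.44 on the log2 scale, so that differences of that size are not shown to be absent.

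At 24 h after 6 Gy, 3 members fell against control, all of them Oas1 genes. Oas1e fell by 1.47 ± 0.45 (adjusted p = 0.0174), Oas1a by 1.02 ± 0.34 (adjusted p = 0.0276) and Oas1g by 0.99 ± 0.32 (adjusted p = 0.0224). Oas1b (-0.17 ± 0.37, adjusted p = 0.757) and Oas1c (0.16 ± 0.32, adjusted p = 0.728), outside the list, were not called. The share is 3 of 7 members, where 16.4% of all genes fell. Of these 3, Oas1a and Oas1g share much of their sequence, and how far their counts are separate measurements is uncertain. Oas1a held 60.5, 54.4 and 117.4 CPM, against 179.5, 122.0 and 169.4 CPM in control, with replicate 3 of 6 Gy close to the lowest control library. Leaving out 1 library left between 0 and 3 of the calls: 0 without 6 Gy 24 h replicate 1, and 1 without replicate 2 of that group, without control replicate 1 or without control replicate 3.

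With CBLB502 added to 6 Gy, 5 of 7 members were lower than control, where 17.5% of all genes fell. Oas1a held 59.8, 55.1 and 39.8 CPM, against 179.5, 122.0 and 169.4 CPM in control (-1.61 ± 0.35, adjusted p = 0.00147). Oas1g fell by 1.5 ± 0.32 (adjusted p = 0.00144), Oas1e by 2 ± 0.46 (adjusted p = 0.00223), Oas3 by 0.88 ± 0.22 (adjusted p = 0.00429) and Oasl2 by 1.25 ± 0.38 (adjusted p = 0.0134). In these 5 the groups did not overlap, and the share of all genes without overlap was not counted. On FPKM, with limma on log2(FPKM + 1), 3 members were called here and 1 at 6 Gy 24 h without CBLB502. Of the 11118 genes, this setting called 6565 here and 6241 at 6 Gy 24 h without CBLB502, in either direction. On FPKM the members were thus not called more often than genes in general. The pancreas, fibroblast and enterocyte values given above move with both groups.

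With CBLB502 without radiation 1 member was called against control, and 6 of the 7 fitted differences were below 0 (median -0.89, all genes 0.0). Oas3 held 107.6, 75.9 and 108.3 CPM at 24 h, against 183.0, 158.4 and 199.0 CPM in control, without overlap (-0.89 ± 0.22, adjusted p = 0.023). Among all genes 3.26% fell in this comparison. Oas1a held 94.9, 58.5 and 76.3 CPM, below every control library (-1.04 ± 0.34, adjusted p = 0.0795). Oas1g (-0.91 ± 0.32, adjusted p = 0.0964) and Oasl2 (-0.7 ± 0.37, adjusted p = 0.291) also lay below every control library and were not called. Oasl1 ran the other way with 146.8, 138.2 and 124.7 CPM, against 120.0, 102.3 and 84.3 CPM in control, also without overlap and not past the test (0.42 ± 0.31, adjusted p = 0.462). The Oas3 call was lost without control replicate 1, without CBLB502 replicate 1 and without CBLB502 replicate 2. With DESeq2 3 members fell, and 1134 genes were called in either direction.

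With CBLB502 before 15 Gy, the means of 6 members at 24 h lay between those of 15 Gy alone and of control, and that of Oasl1 lay above both. No member differed from either by the test. Against control 0 of 7 were called by edgeR, where 16.9% of all genes changed in either direction. Its unadjusted p was under 0.05 for 4 members and for 3438 of the 11118 genes. DESeq2 called 3 members, Oas1a, Oas1g and Oas3, all lower, and 2419 genes in either direction. Against 15 Gy alone, edgeR called 0 of 7 members and 0.0% of all genes, although 867 genes, 4 of them members, had an unadjusted p under 0.05 and DESeq2 called 63 genes. All 7 fitted differences were above 0, from 0.33 ± 0.34 for Oas1a to 1.44 ± 0.60 for Oas2 (median 0.72, all genes 0.0). Oas2 held 21.4, 30.1 and 13.0 CPM with CBLB502 and 15 Gy, against 9.64, 7.97 and 6.18 CPM after 15 Gy alone. With CBLB502 and 15 Gy, Oas1e held 9.19, 11.9 and 9.45 CPM, against 4.34, 5.75 and 3.67 CPM after 15 Gy alone. Oasl1 held 168.2, 87.8 and 113.2 CPM with both, against 78.8, 58.7 and 55.0 CPM after 15 Gy alone. In these 3 genes the groups did not overlap, and how many of all genes did the same was not counted. The adjusted p-values of all 7 were 0.505 or more.

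The CBLB502 by 15 Gy interaction at 24 h sets the difference made by CBLB502 with radiation against that made without it. It was above 0 in all 7 members, from 0.52 ± 0.43 for Oasl1 to 2.46 ± 0.85 for Oas2 on the log2 scale. The median of the members was 1.38, and that of all genes -0.01. None was called by edgeR, which called 0.225% of all genes. Its unadjusted p was under 0.05 for 6 members and for 1045 of the 11118 genes. The smallest adjusted p was that of Oas3 (1.38 ± 0.31, adjusted p = 0.0752), the member that DESeq2 called among 128 genes. Within 6 Gy, CBLB502 called 0 of 7 members and 0.0% of all genes in edgeR, with 303 genes and 0 members at an unadjusted p under 0.05, and DESeq2 called 7 genes. Here all 7 differences were below 0, from -0.81 ± 0.59 for Oas2 to -0.36 ± 0.31 for Oasl1 (median -0.54, all genes 0.02). Whether the CBLB502 difference itself differs between 6 Gy and 15 Gy was not tested. For the interaction and for CBLB502 within 15 Gy and within 6 Gy, the share of all genes with the same sign was not counted. The members share these libraries and most are correlated, so their signs are not independent.

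Of the genes listed for the turnover of 2-5A, Abce1 (an ATP-binding protein of ribosome recycling), Pde12 (a phosphodiesterase that degrades 2-5A) and Cnp (a phosphodiesterase of myelin) rose at 6 Gy 6 h and at 15 Gy 3 d against control. Both Abce1 and Pde12 fell at 15 Gy 6 h. Abce1 held 12.7, 12.2 and 12.5 CPM at 6 Gy 6 h and 21.1, 25.4 and 21.2 CPM at 15 Gy 3 d, against 6.51, 5.01 and 8.59 CPM in control. Both groups lay above control without overlap, by 0.90 ± 0.23 at 6 Gy 6 h (adjusted p = 0.006) and 1.75 ± 0.24 at 15 Gy 3 d (adjusted p = 1.3e-05) on the log2 scale. In the libraries of 15 Gy 6 h Abce1 held 4.02, 2.57 and 3.19 CPM, below all control libraries (-1.04 ± 0.24, adjusted p = 0.0023), and Pde12 was lower with overlap (-0.38 ± 0.12, adjusted p = 0.0257). Pde12 was higher by 0.51 ± 0.12 at 6 Gy 6 h (adjusted p = 0.00381) and 0.76 ± 0.12 at 15 Gy 3 d (adjusted p = 0.00011). Cnp was higher by 1.33 ± 0.19 at 6 Gy 6 h (adjusted p = 2.3e-05) and 1.22 ± 0.19 at 15 Gy 3 d (adjusted p = 7.1e-05). Akap7, whose mouse protein can degrade 2-5A, was called in neither (-0.35 ± 0.27, adjusted p = 0.355 at 6 Gy 6 h, and -0.67 ± 0.27, adjusted p = 0.0675 at 15 Gy 3 d).

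The interferons themselves were scarcely measured: none of the 10 ligand genes listed passed the filter, and their total over all 27 libraries ran from 0 counts for Ifna1 and Ifna5 to 133 for Ifng. Of their receptors and kinases, Ifnlr1, the type III receptor chain, fell by 0.78 at 6 Gy 6 h (adjusted p = 7.9e-05). At 15 Gy 6 h Ifnar2 rose by 0.81 (adjusted p = 0.00057), and Ifnar1 fell by 0.60 at 6 Gy 24 h (adjusted p = 0.023). In FPKM, Ifnar1 was nearly level, with 6.63 ± 1.48 at 6 Gy 24 h and 6.82 ± 0.627 in control. Against control, Stat2 and Irf7 were called in none of the 8 comparisons. Irf9 rose by 0.53 at 15 Gy 6 h (adjusted p = 0.045). Usp18, which damps interferon receptor signalling, fell with the OAS genes at 15 Gy 24 h, to 37.5, 28.5 and 24.1 CPM, against 77.7, 66 and 207.2 CPM in control (-1.96, adjusted p = 0.0342).

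**Figure D5:**
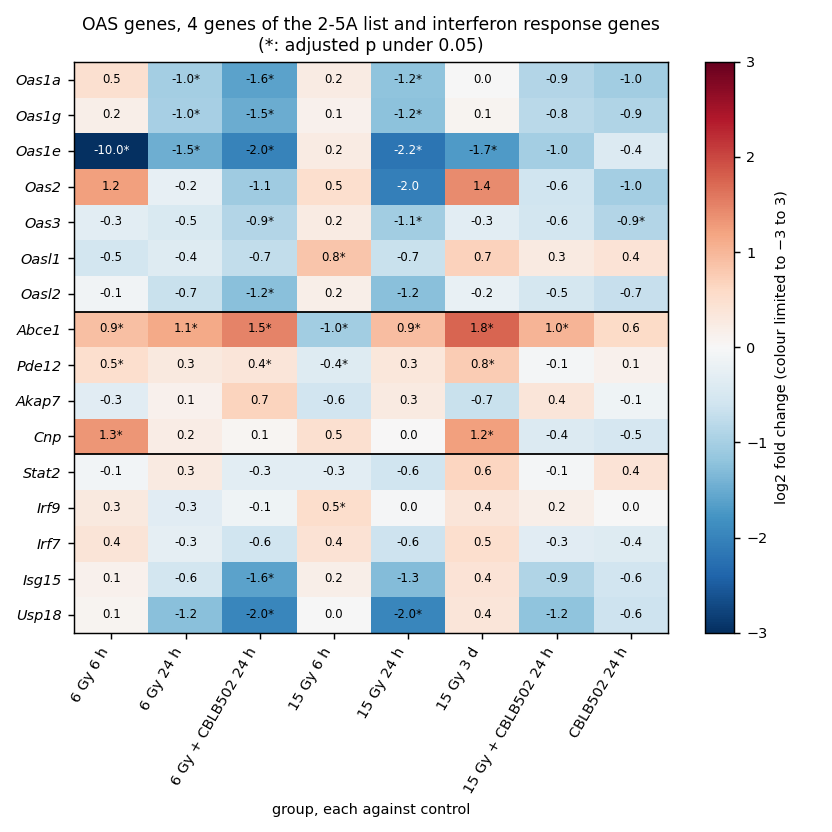
Log2 fold change against control (colour and number, colour limited to -3 to 3) of the 7 members, 4 genes of the 2-5A list and 5 interferon response genes in 8 groups; an asterisk marks an adjusted p under 0.05 in edgeR. The column of 15 Gy 24 h is negative for all members with 4 asterisks, and Cnp has asterisks at 6 Gy 6 h and 15 Gy 3 d only.

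Of the 67 tested genes of the pathway lists, 5 fell and 1 rose at 15 Gy 24 h against control (median -0.40, all genes 0.03), where 2.31% of all genes fell and 2.63% rose. The 5 were Gbp2 (-2.04, adjusted p = 0.00517) and Irgm1 (-2.08, adjusted p = 0.0383), both interferon-induced GTPases, Trim30a (-1.53, adjusted p = 0.0358), Usp18 and Socs3, a cytokine signal inhibitor (-1.74, adjusted p = 0.00533). From 24 h to 3 d 29 rose and 4 fell (median 0.60, all genes 0.01), where 11.2% of all genes rose and 14.1% fell. Among those that rose were Usp18 (2.32, adjusted p = 0.00251), Irf7, the transcription factor whose translation Oasl1 limits (1.14, adjusted p = 0.00417), Stat2 (1.24, adjusted p = 0.0183), Isg15, a ubiquitin-like modifier (1.72, adjusted p = 0.0182), and the RNA sensors Ifih1 (1.05, adjusted p = 0.00049) and Zbp1 (1.69, adjusted p = 0.00077). At 15 Gy 6 h 15 fell and 5 rose, those that fell including Samd9l (-1.73, adjusted p = 1e-06), Eif2ak2, the RNA-activated kinase PKR (-1.55, adjusted p = 1.4e-05), and Mx1 (-1.54, adjusted p = 0.00083) (16.8% and 12.2% of all genes). At 6 Gy 6 h 16 rose and 2 fell, with Gbp2 at 1.88 (adjusted p = 0.00085), where 13.1% of all genes rose and 15.3% fell. With CBLB502 and 6 Gy 24 fell and 2 rose against control, where 17.5% of all genes fell and 19.8% rose.

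How alike the members were is described by Pearson's r of log2 CPM over the 27 libraries, which share group, depth and tissue make-up. Oas1a and Oas1g had an r of 0.98. Among Oas1a, Oas1g, Oas2, Oas3 and Oasl2 it ran from 0.73 to 0.98. Oasl1 reached 0.42 to 0.53 with these 5, and Oas1e -0.33 to 0.09 with them and 0.46 with Oasl1. The genes outside the list most like the mean of the 7 members were H2-T22, a non-classical MHC class I gene (0.91), Tor3a (0.80), Trim25 (0.78), H2-T24 (0.77) and Isg15 (0.76), followed by Itm2b, Git1, Ube2q1, H2-Q6 and Usp18 (0.73 to 0.75). That mean was of centred, unscaled log2 CPM, so members with a wide range weigh more. Oas1e had the widest, with its highest group mean 1364 times its lowest, that of 6 Gy 6 h. How far this order rests on Oas1e was not tested. Most like single members were Parp12 for Oas1a (0.94), Isg15 for Oas1g (0.94), Adar for Oas2 (0.91), Bst2 for Oas3 (0.85), Ceacam18 for Oasl1 (0.78) and Isg15 for Oasl2 (0.84). Oas1e had another set, Sema3b (0.94), Acot12 and Abcb1a (both 0.93). All 3 were also lower at 6 Gy 6 h, without overlap. From 6 h to 24 h after 15 Gy, Oas1e fell by 2.42. There Abcb1a (-0.47), Sema3b (-0.36) and Acot12 (-0.13) were not called. How far these r values rest on the libraries of 6 Gy 6 h was not tested. Abcb1a, a drug efflux transporter, held 14.4, 11.3 and 15.2 CPM at 6 Gy 6 h, against 764.4, 1241.7 and 705.2 CPM in control (-6.05 ± 0.34, adjusted p = 1.9e-10). Acot12 averaged 25.6 CPM at 6 Gy 6 h and 170.8 CPM in control (-2.74 ± 0.31, adjusted p = 1.2e-06), and Sema3b 23.7 CPM at 6 Gy 6 h and 121.7 CPM in control (-2.36 ± 0.18, adjusted p = 6.8e-09).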

How the data were processed

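RNA-seq was made from intestine in 27 libraries, 3 in each of 9 groups taken from the labels. The counts were made by the authors and used as deposited, whole numbers per gene and library. FPKM is the authors' own deposited value, per the file headers, with 0.0001 standing for 0. The sources used here do not give how fragments were assigned, the strand setting or the annotation. The submitters' processing notes name Bowtie 0.12.2, HISAT2 2.0, StringTie 1.3.0 and the build mm8. Of 55141 identifiers found in GENCODE vM21 (GRCm38), 51957 (94.2%) have the same start and end, so positions are given on GRCm38.

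Counts were fitted with edgeR 4.0.16 in R 4.3.3 (quasi-likelihood test, TMM scaling, all 27 libraries). The 11118 genes that reached an FPKM of 1 in 3 or more libraries entered, and p-values were Benjamini-Hochberg adjusted over them within each of 14 comparisons. A gene is called when its adjusted p is under 0.05. Total counts of 57.4 to 87.1 M left a common dispersion of 0.0961, a coefficient of variation of 31%. Intervals of a difference are 1.96 SE each way. The fit was tested on simulated data.

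The members, the pathway and marker lists and the comparisons were chosen with earlier results of these data known. Named are all members and other Oas rows, up to 4 called genes of each pathway list with the smallest adjusted p in a comparison, a fixed set of interferon signalling genes, the 10 genes most like the members' mean and the 3 most like each member. Mb21d1 and Tmem173 stand in the table as Cgas and Sting1. Alternatives were no filter, median-ratio scaling, DESeq2 1.42.0, the replicate number as a block, limma 3.58.1 on log2(FPKM + 1) and log2(FPKM + 0.1), the compared groups fitted alone, a fit leaving out both 24 h groups of 6 Gy (6 libraries), and each library left out. Libraries of a group differed by more than counting error. Some genes of the lists are not reported here. Promoters are from RefSeq, and windows were aligned with Biopython.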

Additional observations from a re-analysis of the deposited data

Results flagged for a closer look

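The members whose values differed between doses or times by the test of the difference itself are listed here, on the log2 scale. At 6 h, 15 Gy minus 6 Gy was 10.24 for Oas1e (a fitted value, no bound), 1.37 for Oasl1 and 0.56 for Oas3. At 15 Gy, 24 h minus 6 h was -2.54 for Oas2, -2.42 for Oas1e, -1.5 for Oasl1, -1.44 for Oas1a, -1.42 for Oasl2, -1.36 for Oas1g and -1.3 for Oas3. At 15 Gy, 3 d minus 24 h was 3.46 for Oas2, 1.36 for Oasl1, 1.3 for Oas1g, 1.19 for Oas1a and 0.73 for Oas3.

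Oas1f, an Oas1 copy below the filter and outside the comparisons, had 82 counts in total over the 3 libraries of 15 Gy at 3 d (55, 14 and 13), against 0 counts in each of the 3 control libraries. It also had 24, 0 and 12 counts with 6 Gy and CBLB502 and 8, 0 and 8 at 6 Gy 24 h. It was at 0 in all libraries of 15 Gy at 6 h and 24 h and of CBLB502 alone. How these few reads were assigned among the Oas1 copies was not tested.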

How the results depend on the processing

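Of the 31 cases of a member called in a comparison, 15 were called under every alternative run and 16 were lost in at least 1, none with a change of sign. The number of members called moved as follows, and the cause was not tested. Without the filter it was 0 at 15 Gy 6 h and 2 at 15 Gy 24 h against control. With DESeq2 it was 2 at 15 Gy 3 d, 3 with CBLB502 alone, 3 with CBLB502 and 15 Gy and 1 in the interaction. With limma on log2(FPKM + 1) it was 1 at 6 Gy 24 h, 0 at 15 Gy 6 h, 2 at 15 Gy 24 h, 2 at 15 Gy 3 d, 0 with CBLB502 alone and 3 with CBLB502 and 6 Gy. With limma on log2(FPKM + 0.1) it was 0 at 6 Gy 24 h, 0 at 15 Gy 6 h, 2 at 15 Gy 24 h, 2 at 15 Gy 3 d and 3 with CBLB502 and 6 Gy. With the compared groups fitted alone, on fewer samples, it was 2 at 6 Gy 6 h, 0 at 15 Gy 6 h, 1 at 15 Gy 24 h, 0 at 15 Gy 3 d, 0 with CBLB502 alone and 1 with CBLB502 and 15 Gy. Without the 6 libraries of 6 Gy at 24 h it was 0 at 15 Gy 6 h. Leaving out 1 library each time gave 0 to 3 at 6 Gy 24 h, 0 to 1 at 15 Gy 6 h, 2 to 3 at 15 Gy 24 h, 1 to 2 at 15 Gy 3 d and 0 to 1 with CBLB502 alone against control, and 3 to 5 from 24 h to 3 d. For 15 Gy against 6 Gy at 6 h it was 2 or 3 throughout. Among all genes, limma on log2(FPKM + 1) called 6241 at 6 Gy 24 h and 6565 with CBLB502 and 6 Gy, in either direction. On log2(FPKM + 0.1) it called 6112 and 6412. Signs changed only for members not called. On FPKM (added 1, then 0.1) these were Oas2 (0.14, 0.13), Oas3 (0.09, 0.09) and Oasl1 (0.19, 0.19) at 6 Gy 24 h and Oas1a (0.18, 0.18) and Oasl2 (0.05, 0.05) at 15 Gy 3 d. Oas1a at 15 Gy 3 d was 0.00 with the compared groups alone, and Oas1g for 15 Gy against 6 Gy was 0.06 without the filter. With 1 library left out the ranges were -0.42 to 0.23 for Oasl2 at 6 Gy 6 h and -1.09 to 0.30 for Oas2 at 6 Gy 24 h. At 15 Gy 6 h they were -0.22 to 0.46 for Oas1a, -0.10 to 0.49 for Oas1e, -0.29 to 0.34 for Oas1g, -0.41 to 1.04 for Oas2, -0.01 to 0.39 for Oas3 and -0.38 to 0.40 for Oasl2. At 15 Gy 3 d they were -0.39 to 0.18 for Oas1a and -0.23 to 0.24 for Oas1g. They were -0.02 to 0.46 for Oasl1 with CBLB502 and 15 Gy, -1.21 to 0.04 for Oas2 for CBLB502 within 6 Gy, and -0.11 to 0.92 for Oas1e from 24 h to 3 d. For 15 Gy against 6 Gy they were -0.48 to 0.15 for Oas1g and -0.28 to 0.60 for Oasl2. The replicate numbers did not pair the samples: same-numbered deviations had correlations of -0.26 to 0.25, and in 0 of 13 comparisons were all pairs above 0.1. With the replicate number as a block, 3 members were called at 15 Gy 24 h and 6 with CBLB502 and 6 Gy, and the other counts were as without it. Depth limits Oas1e at 6 Gy 6 h and the rows of Oas1d, Oas1f and Oas1h.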
